A study of Mus musculus with 14 samples.

Results

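The control libraries of CT26 and MC38, the colon tumour lines of this series, were compared with each other: 3 libraries of CT26 against 2 of MC38, chosen by their labels as control agonist libraries of these lines, 5 of the 14 libraries in all. CT26 is a colorectal carcinoma line of BALB/c mice and was grown in RPMI with FBS. MC38 is a colon adenocarcinoma line of C57BL6 mice and was grown in DMEM with FBS. In every group 100000 cells were plated per well and received 0.5 ug/ml of agonist for 24 h, so the control cells had been given the control agonist and were not untreated. The remaining groups are the same lines given a RIG-I agonist (3 libraries of CT26 and 2 of MC38) and the C57BL/6 mammary line E0771 with either agonist (2 libraries each). Nothing in the labels ties the libraries of a line to separate cultures. Any p-value therefore reflects library-to-library spread, possibly only technical. Each line is a single cultured tumour line, and CT26 differs from MC38 in mouse strain, in medium and in library set as well as in origin, and these cannot be told apart. E0771 shares its strain with MC38 and its medium with CT26. Its control level is quoted beside some genes and enters no test.

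CT26 and MC38 are among the most widely used transplantable mouse tumours, and both are handled as models of colon cancer. Colon epithelium is marked by the adhesion molecule EpCAM, E-cadherin, simple keratins and the CDX homeobox factors, and tumour cells can lose these while gaining vimentin, N-cadherin, ZEB factors and fibrillar collagens. How such cells meet the immune system depends on their resting interferon programme, on antigen presentation by MHC class I and on the chemokines and surface ligands they carry.

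Total counts were 35794244, 40564102 and 39457458 in the CT26 libraries and 15576426 and 13021023 in those of MC38. A count of 0 therefore allowed up to 0.074 to 0.084 CPM (counts scaled to the library size) in a CT26 library and 0.193 to 0.23 CPM in an MC38 library, so a low gene can be seen in CT26 at a level that would be missed in MC38. Between 92.73% and 93.91% of CT26 counts fell on protein-coding genes, and 97.77% to 97.88% of MC38 counts. Pseudogenes took 5.98% to 7.15% and 2.01% to 2.12%. Levels below are CPM on library sizes scaled by TMM, listed in order of replicate number. Means are given ± SD (n = 3 in CT26 and n = 2 in MC38). The log2 differences are CT26 minus MC38 ± standard error, so that a negative value means more in MC38. Levels in CPM are not scaled to gene length and are compared between lines for 1 gene at a time.

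Most of the transcriptome differed between the lines. Of 14763 genes tested, 11524 (78.1%) had an adjusted p under 0.05, 5863 of them (39.7%) higher in CT26 and 5661 (38.3%) higher in MC38. The median absolute log2 difference was 0.85 and the median signed difference 0.02. Because a bare call is this common, a second rule is used beside it: a difference shown to exceed 2-fold by edgeR's glmTreat, which 2500 genes met toward CT26 (16.9%) and 2458 toward MC38 (16.6%), 33.6% together. At the far end, 612 called genes were at least 32-fold higher in CT26 and 707 in MC38 by the fitted difference. For a gene at or near 0 counts in a line this fold depends on the prior count of the fit. Some of these genes are therefore not shown to reach 32-fold. Serpinb9d, fitted at 71.3-fold with 0 counts in MC38, was at least 3.07-fold higher in CT26 if up to 3 MC38 counts are allowed. The libraries of the lines did not overlap at all for 85.8% of genes tested, so separation of the 5 libraries is the background here and not a mark of a particular gene. Counts for each gene list below are likewise to be read against the shares over all genes. These were 39.7% toward CT26 and 38.3% toward MC38 for a call, and 16.9% and 16.6% beyond 2-fold.

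**Figure D1:**
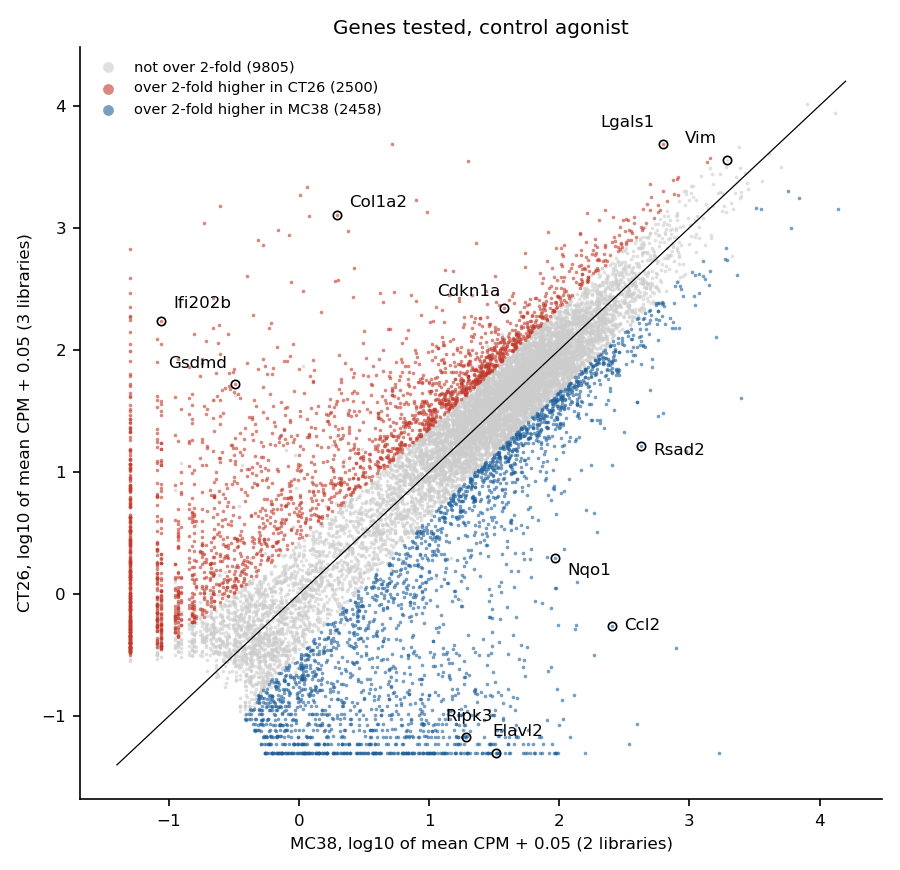
Mean control level of every tested gene in MC38 (x axis) and CT26 (y axis), both log10 of CPM with 0.05 added. Grey points are genes not shown to differ by more than 2-fold, and coloured points those shown to do so in either direction. Named points are genes described in the text. The coloured points fill both sides of the diagonal about equally, 2500 toward CT26 and 2458 toward MC38.

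Several defining markers of colon epithelium were at or near 0 in both lines. Epcam and Cdx1 had 0 counts in all 5 libraries, and Cdh1, which encodes E-cadherin, had 3 counts in CT26 and 1 in MC38. Krt8, a simple epithelial keratin, was 0.282, 0.204 and 0.131 CPM in CT26 against 0.187 and 0.368 CPM in MC38, against 260 and 210 CPM in E0771. Krt8 shares 32.2% of its 31-base words with the pseudogene Krt8-ps, so reads could be divided between them, and their sum was not formed. The keratin Krt18, partner of Krt8, was 20.5, 25.6 and 23.1 CPM in CT26 against 0 CPM in both libraries of MC38, and at 0 in E0771. The 55 genes of the list for epithelial junctions and keratins, many of them shared with other cells, summed to 873 to 964.5 CPM in CT26 and 677 to 693.4 CPM in MC38, against 795.3 CPM in E0771. Of 29 tested genes for epithelial junctions and keratins, 10 were higher in CT26 and 11 in MC38, 5 and 9 of them beyond 2-fold, with a median log2 difference of -0.4. Some members were far apart in the lines. Krt20, a keratin of differentiated gut epithelium, was 18.3, 18.7 and 19 CPM in CT26 against 0.187 and 0.0736 CPM in MC38 (log2 difference 7.07 ± 0.25 (SE), edgeR adjusted p = 4.88e-13), and the tight-junction claudin Cldn6 was 91.8 ± 5.86 CPM in CT26 against 13.4 ± 0.0994 in MC38. The epithelial factors Ovol2 and Elf3 stood at 8.16 ± 0.517 CPM and 6.23 ± 0.172 CPM in MC38, with 0 counts in CT26 and 243 in MC38 for Ovol2 and 1 count in CT26 and 185 in MC38 for Elf3. Klf4, a factor of epithelial differentiation, was 141 ± 21 CPM in CT26 against 31.9 ± 1.09 in MC38 (log2 difference 2.15 ± 0.12 (SE), edgeR adjusted p = 1.92e-09).

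Much of the intestinal lineage list was also at or near 0. Only 13 of its 54 measured genes passed the filter on low counts, and 25 members in CT26 and 24 in MC38 had 0 counts. Among the 13, 5 were higher in CT26 and 4 in MC38, with 4 each beyond 2-fold and a median log2 difference of 0.05. Gata4, a factor of the proximal gut, was 12.2, 12 and 9.74 CPM in CT26 against 0.187 and 0.0736 CPM in MC38. Sox9, a factor of crypt progenitors, ran the other way at 6.26, 7.16 and 5.01 CPM in CT26 against 33.3 and 33.5 CPM in MC38 (log2 difference -2.44 ± 0.13 (SE), edgeR adjusted p = 4.68e-11). Espn, an actin bundler of microvilli, was at 0 in every library of CT26 and 27.1 and 29.5 CPM in MC38, at least 1060-fold higher in MC38 when 3 counts over the CT26 libraries are taken as the limit. The brush border villin gene Vil1 stayed below 1 CPM in both lines (0.0564, 0.0509 and 0 CPM in CT26 against 0.56 and 0.368 CPM in MC38), and Foxa1 was 9.36 ± 0.198 CPM in CT26 against 5.66 ± 0.0963 in MC38.

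Markers of other cell types were sparse. The 26 leukocyte markers summed to 25.4 to 28.6 CPM over the CT26 libraries and 29.8 to 31 CPM in MC38, most of it Cd14, and 8 members had 0 counts in either line, among them the T-cell receptor component Cd3e. Ptprc, the pan-leukocyte CD45 gene, was 0.141, 0.178 and 0.21 CPM in CT26 against 0.436 and 0.662 CPM in MC38, and 1 tested member of 9 was higher in CT26 and 3 in MC38 (median log2 difference -0.53). The 12 endothelial markers summed to 6.7 to 7.4 CPM in CT26 and 25.8 to 32.8 CPM in MC38, with 1 of 5 tested higher in CT26 and 3 in MC38, all beyond 2-fold, and a median of -2.72. The vascular genes Pecam1 and Egfl7 were 9.84 ± 3.97 CPM and 14.8 ± 1.89 CPM in MC38 and 1.47 ± 0.64 CPM and 0.116 ± 0.0406 CPM in CT26, while the endothelial receptor gene Kdr was near 0 in both (1 count in CT26 and 1 in MC38). In such bulk RNA a smaller share of cells expressing a gene and less RNA per cell cannot be told apart. Of the Y-linked genes, Kdm5d was 1.63, 1.45 and 1.86 CPM in CT26 against 3.3 and 3.02 CPM in MC38 and Ddx3y 0.0564, 0.0509 and 0.0262 CPM in CT26 against 0.0623 and 0.221 CPM in MC38. Among 3 tested Y-linked genes, 2 were higher in MC38, none beyond 2-fold, and the median was -0.96.

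**Figure D2:**
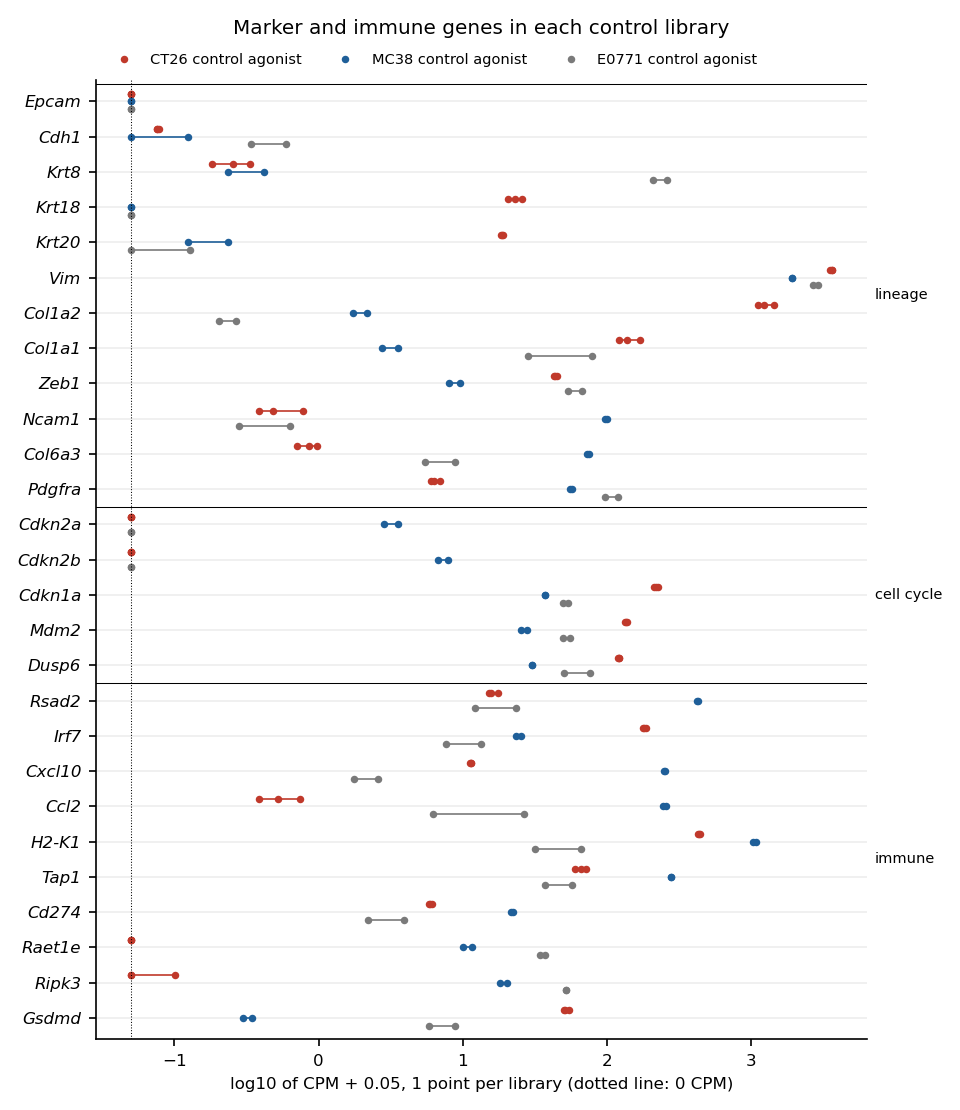
Control level of cell type markers (block lineage) and of genes in the blocks cell cycle and immune, in each library of CT26, MC38 and E0771 (points, CPM with 0.05 added, log scale). Epithelial markers lie at or near the bottom in the colon lines, apart from Krt18 and Krt20 in CT26, and mesenchymal markers lie high in 1 or both lines.

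Both lines expressed mesenchymal genes, and more of these were higher in CT26. Of 34 tested genes of mesenchyme and epithelial-mesenchymal transition, 20 were higher in CT26 and 8 in MC38, 14 and 3 of them beyond 2-fold, and the median log2 difference was 0.79. Vim, the intermediate filament of mesenchymal cells, was 3629, 3662 and 3525 CPM in CT26 against 1927 and 1929 CPM in MC38. It was thus abundant in both lines and higher in CT26 (log2 difference 0.90 ± 0.08 (SE), edgeR adjusted p = 4.15e-08). Zeb1, a repressor of E-cadherin, was 43.8, 43 and 44.9 CPM in CT26 against 8.03 and 9.49 CPM in MC38 (log2 difference 2.33 ± 0.11 (SE), edgeR adjusted p = 1.53e-11). Cdh2, the N-cadherin gene, was 89 ± 6.26 CPM in CT26 against 37 ± 2.46 in MC38. Snai2 was 20.7 ± 2.3 CPM in CT26 against 5.08 ± 0.408 in MC38. The limb and craniofacial mesenchyme factors Prrx1 and Prrx2 showed wider gaps: Prrx1 was 113, 97.3 and 101 CPM in CT26 against 13.3 and 10.2 CPM in MC38. Prrx2 was 81.6, 99.1 and 91.3 CPM in CT26 against 2.43 and 1.55 CPM in MC38. In MC38 the neural cell adhesion gene Ncam1 was the widest exception, 0.338, 0.433 and 0.735 CPM in CT26 against 96.6 and 100 CPM in MC38 (log2 difference -7.59 ± 0.15 (SE), edgeR adjusted p = 6.19e-16), and the mesenchymal factor Foxc2 was also higher there (1.67 ± 0.144 CPM in CT26 against 7.57 ± 0.32 in MC38). The platelet-derived growth factor receptors split. Pdgfra was 6, 6.24 and 6.93 CPM in CT26 against 55.8 and 57.7 CPM in MC38. Pdgfrb was 57.9, 55.9 and 49.6 CPM in CT26 against 8.22 and 8.46 CPM in MC38, so each line was high in 1 receptor of the pair. The 14 fibroblast markers, which overlap these lists, had 4 of 10 tested higher in CT26 and 3 in MC38 (4 and 2 beyond 2-fold, median -0.02) and summed to 1368 to 1740 CPM in CT26 against 149.4 to 151.2 CPM in MC38, mostly through Col1a2. The microfibril gene Mfap5 was 0.204 ± 0.0295 CPM in CT26 against 6.89 ± 0.144 in MC38.

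Genes of the extracellular matrix differed in both directions. Over 54 tested collagen, laminin and other matrix genes, 19 were higher in CT26 and 26 in MC38, with 18 and 17 beyond 2-fold and a median log2 difference of -0.34. CT26 carried fibrillar collagen I. The level of Col1a2 was 1438, 1229 and 1123 CPM in CT26 against 1.68 and 2.13 CPM in MC38 (log2 difference 9.38 ± 0.18 (SE), edgeR adjusted p = 5.04e-16). That of Col1a1 was 171, 138 and 122 CPM in CT26 against 3.49 and 2.72 CPM in MC38 (log2 difference 5.52 ± 0.21 (SE), edgeR adjusted p = 1.05e-08). The basement membrane linker Nid1 and the fibulin Fbln2 were also far higher in CT26: Nid1 was 29.5 ± 3.71 CPM in CT26 against 0.141 ± 0.112 in MC38. Fbln2 was 303 ± 21.6 CPM in CT26 against 1.02 ± 0.216 in MC38. Other collagen genes, fibrillar ones among them, were higher in MC38. Col4a1, a basement membrane collagen, was 183, 162 and 143 CPM in CT26 against 553 and 580 CPM in MC38 (log2 difference -1.80 ± 0.09 (SE), edgeR adjusted p = 4.96e-11), and Col6a3 was 0.93, 0.815 and 0.656 CPM in CT26 against 75.1 and 73.1 CPM in MC38 (log2 difference -6.53 ± 0.12 (SE), edgeR adjusted p = 4.52e-16). The fibrillar chain Col11a1 was 0.0351 ± 0.0137 CPM in CT26 against 18.4 ± 0.211 in MC38, the fibrillar Col5a3 0.351 ± 0.194 CPM in CT26 against 34.4 ± 0.711 in MC38, and Col4a6 had 0 counts in CT26 and 26.7 ± 0.0948 CPM in MC38. Fibronectin (Fn1) was high in both at 1320 ± 200 CPM in CT26 against 802 ± 25.8 in MC38, with 0.187 CPM in E0771.

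Integrins, the receptors for this matrix, were evenly split: 7 of 17 tested were higher in CT26 and 8 in MC38, with a median of 0.08. Beyond 2-fold were 4 and 5, together 52.9% of the list against 33.6% of all genes. The common beta chain Itgb1 was 818 ± 54.9 CPM in CT26 against 1183 ± 12.1 in MC38. Itgb7, a beta chain best known on gut-homing lymphocytes, was 112, 124 and 109 CPM in CT26 against 2.8 and 3.31 CPM in MC38 (log2 difference 5.24 ± 0.13 (SE), edgeR adjusted p = 7.57e-15). The RGD-binding chain Itgav was 88, 75.2 and 72.5 CPM in CT26 against 214 and 219 CPM in MC38 (log2 difference -1.46 ± 0.08 (SE), edgeR adjusted p = 1.97e-10). The collagen receptor chain Itga1 was 1.86 ± 1.18 CPM in CT26 against 16.3 ± 0.421 in MC38 (not called without the first CT26 library or either MC38 library), and Itgal, a leukocyte integrin chain, had 2 counts in CT26 and 279 in MC38. The hemidesmosome chain Itgb4 gave no call (6.23 ± 0.445 CPM in CT26 against 5.79 ± 0.968 in MC38, log2 difference 0.11 ± 0.16 (SE), edgeR adjusted p = 0.538).

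More Hox genes, the homeobox factors that pattern the body axis, were higher in MC38 than in CT26. Of 31 tested, 4 were higher in CT26 and 20 in MC38, and 7 gave no call. By the 2-fold rule these counts were 3 and 17, together 64.5% of the list against 33.6% of all genes, and the median log2 difference was -1.52. Hoxd13, the most posterior gene of its cluster, was at 0 in every library of CT26 and 26.7 and 29 CPM in MC38 and had 0 counts in E0771. Hoxd9 and Hoxd10 had 0 counts in CT26 and 15.8 ± 0.475 CPM and 10.9 ± 2.43 CPM in MC38, and E0771 had 39.8 and 27.7 CPM. These Hoxd genes belong to a single cluster, where Hoxd13 lies at chromosome 2, 74668310 to 74671599 in GRCm38. Hoxb13, a marker of distal colon and prostate, had 0 counts in CT26 and 5.69 ± 0.761 CPM in MC38, and Hoxc10 had 0 counts and 10.7 ± 0.924 CPM. The mammary line E0771 was above MC38 for these as well, at 8.23 CPM of Hoxb13 and 33.3 CPM of Hoxc10. Both lines expressed Hoxa9, at 21.9 ± 0.804 CPM in CT26 against 31 ± 1.37 in MC38, and Hoxa10, at 9.75 ± 0.279 CPM in CT26 against 25.2 ± 0.658 in MC38. Hoxc6, higher in CT26, was 11.3 ± 0.826 CPM in CT26 against 6.43 ± 0.9 in MC38.

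Among imprinted genes, which are expressed from a single parental allele, 18 were tested, of which 4 were higher in CT26 and 12 in MC38 (1 and 8 beyond 2-fold, median -1.22). Peg10 was at 0 in every library of CT26 and 42 and 40.3 CPM in MC38. Its neighbour Sgce was 0, 0.0255 and 0 CPM in CT26 against 17.1 and 17.1 CPM in MC38. Plagl1, a zinc-finger factor of the imprinted network, had 0 counts in CT26 and 13.1 ± 0.561 CPM in MC38, and all 3 were at 0 in E0771 as well. Gatm, which makes the creatine precursor, was 0.225, 0.0764 and 0.0525 CPM in CT26 against 97.9 and 93.6 CPM in MC38 (log2 difference -9.64 ± 0.18 (SE), edgeR adjusted p = 3.75e-16). Germline and cancer-testis genes were mostly silent, with 18 of 53 tested, 5 higher in CT26 and 12 in MC38, 4 and 11 beyond 2-fold. Their median log2 difference was -7.3 as fitted and -4.68 when genes with 0 counts in a line are set to the limit of 3 counts there. Genes with 1 to 3 counts in a line kept their fitted value in both medians. The levels behind it were moderate: Mageb2 was 0.0282, 0 and 0 CPM in CT26 against 17.5 and 15.9 CPM in MC38. Maged2 was at 0 in every library of CT26 and 17.6 and 19.1 CPM in MC38. Xlr3a was 0.0282, 0.0509 and 0.105 CPM in CT26 against 27.2 and 30.2 CPM in MC38. Maged1, by contrast, was high in both lines (484 ± 4.96 CPM in CT26 against 335 ± 2.55 in MC38).

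**Figure D3:**
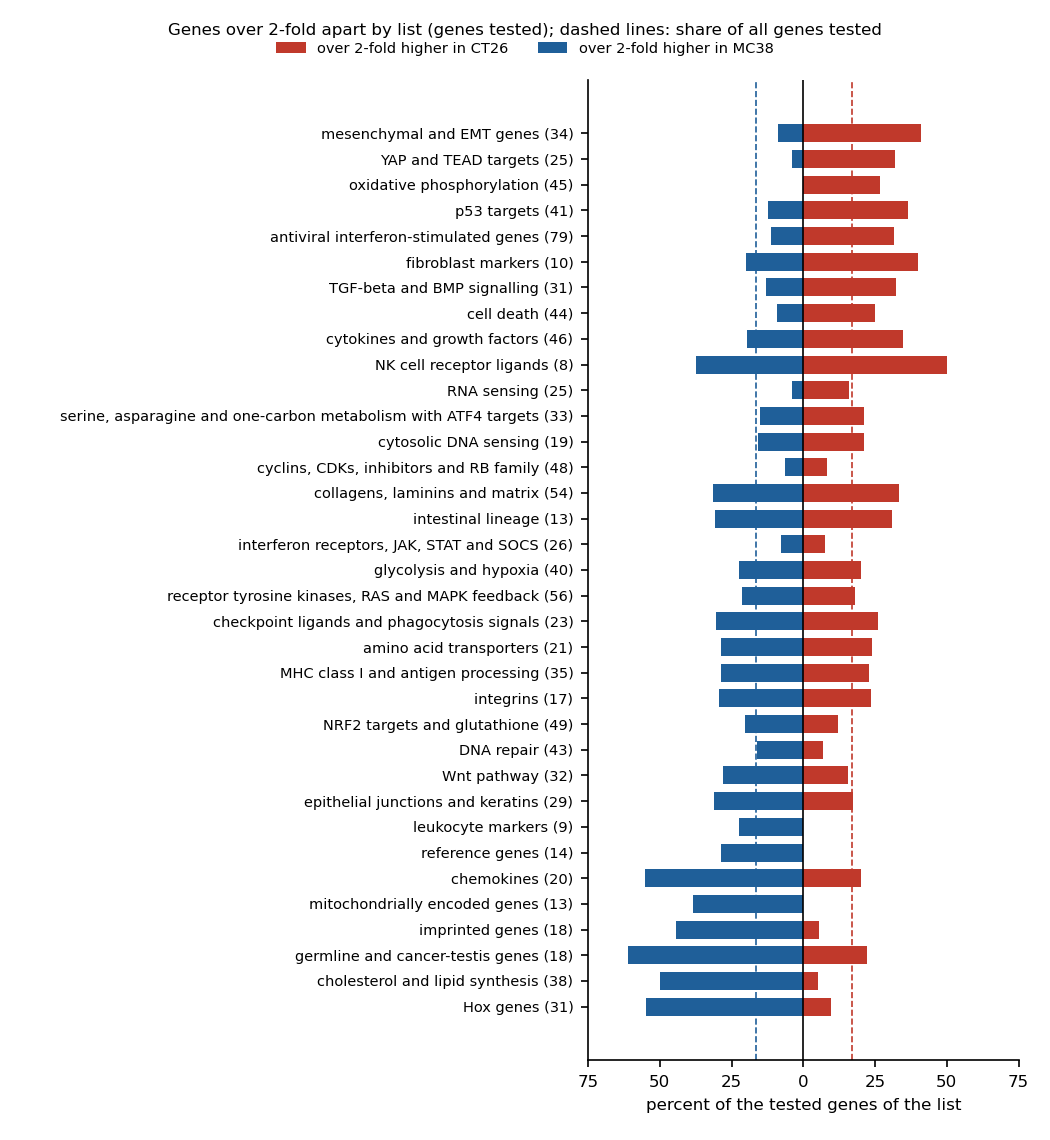
Share of each gene list that exceeded a 2-fold difference toward CT26 (right) and toward MC38 (left), in percent of tested members for lists with 8 or more, with dashed lines at the shares over all genes tested, 16.9% and 16.6%. Germline, chemokine, Hox and cholesterol genes reach furthest toward MC38, and NK cell receptor ligands toward CT26.

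The cell cycle inhibitors of the Ink4 locus were present in MC38 and undetected in CT26. Cdkn2a, which encodes p16 and p19Arf, had 0 counts in CT26 and 93 in MC38, and Cdkn2b, which encodes p15, had 0 counts in CT26 and 215 in MC38. The neuronal RNA-binding gene Elavl2, the next expressed gene on that side, had 0 counts in CT26 and 980 in MC38 (32.8 ± 4.15 CPM there). These 3 genes form a run between 89274471 and 91400785 on chromosome 4. On the flank, Mtap, an enzyme of methionine salvage, was transcribed in both lines at 210 CPM in CT26 and 354 CPM in MC38 (log2 difference -0.76, edgeR adjusted p = 6.18e-08). Cdkn2a and Cdkn2b were also at 0 counts in E0771 and Elavl2 at 1 count. No DNA was measured here, so loss of the locus and silence of its genes cannot be told apart.

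Over the wider list of 48 cyclins, cyclin-dependent kinases, inhibitors and retinoblastoma family genes, 14 were higher in CT26 and 19 in MC38, 4 and 3 beyond 2-fold, and the median was -0.1. The share beyond 2-fold was 14.6%, against 33.6% of all genes. Cdkn1a, the p21 inhibitor, was 226, 219 and 213 CPM in CT26 against 37.5 and 37.2 CPM in MC38 (log2 difference 2.55 ± 0.08 (SE), edgeR adjusted p = 1.41e-13). Ccne1, the cyclin of S-phase entry, was 65.5, 67.3 and 64.5 CPM in CT26 against 12.2 and 14.3 CPM in MC38 (log2 difference 2.31 ± 0.10 (SE), edgeR adjusted p = 5.31e-12). The Ink4 relatives Cdkn2c and Cdkn2d were also higher in CT26. Cdkn2c was 56.5 ± 2.96 CPM in CT26 against 17.9 ± 0.00716 in MC38. Cdkn2d was 52.9 ± 4.12 CPM in CT26 against 16.3 ± 0.613 in MC38. E2f2 was 13.5 ± 1.12 CPM in CT26 against 41.5 ± 6.85 in MC38. Ccnd1 was 857 ± 62.7 CPM in CT26 against 487 ± 13.8 in MC38. Rb1 was 23.2 ± 2.73 CPM in CT26 against 15.3 ± 0.227 in MC38.

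Targets of the p53 tumour suppressor were more often higher in CT26. Of 41 tested, 24 were higher in CT26 and 13 in MC38, 15 and 5 beyond 2-fold, with a median log2 difference of 0.72, against 0.02 over all genes. The gene of p53 itself, Trp53, was 146 ± 9.92 CPM in CT26 against 191 ± 1.49 in MC38, slightly higher in MC38. Mdm2, the ubiquitin ligase that p53 induces against itself, was 133, 136 and 139 CPM in CT26 against 28 and 25.2 CPM in MC38 (log2 difference 2.35 ± 0.09 (SE), edgeR adjusted p = 8.81e-13). Phlda3 was 83.4, 86.5 and 81.6 CPM in CT26 against 12.8 and 12.4 CPM in MC38 (log2 difference 2.73 ± 0.09 (SE), edgeR adjusted p = 4.02e-13). Bax, the pore former of mitochondrial apoptosis, was 195, 233 and 223 CPM in CT26 against 70.2 and 70.9 CPM in MC38 (log2 difference 1.62 ± 0.09 (SE), edgeR adjusted p = 1.10e-10). Every CT26 library was above both MC38 libraries for these genes. Sertad1 followed at 87.7 ± 5.61 CPM in CT26 against 11 ± 0.0115 in MC38, as did 2 metabolic targets that were nearly silent in MC38: Ephx1 at 117 ± 3.43 CPM in CT26 against 0.141 ± 0.112 in MC38, and Dglucy at 50.5 ± 1.74 CPM in CT26 against 0.241 ± 0.076 in MC38. Members higher in MC38 included Ddit4, an inhibitor of mTOR complex 1, at 24.9, 28.8 and 26.5 CPM in CT26 against 173 and 185 CPM in MC38. Sesn1 was 9.96 ± 0.377 CPM in CT26 against 32.7 ± 0.154 in MC38, and Trp53inp2 6.6 ± 0.589 CPM in CT26 against 38.4 ± 0.807 in MC38. Neither the mutation state of Trp53 nor the protein was measured.

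DNA repair genes leaned toward MC38 by small steps: 8 of 43 were higher in CT26 and 28 in MC38, 3 and 7 beyond 2-fold, with a median of -0.43. Set against the median of each gene's class of exon length, explained with the oxidative phosphorylation genes, the list's median was -0.24. Rad50, of the double-strand break complex, was 54.6, 55.4 and 58 CPM in CT26 against 204 and 202 CPM in MC38 (log2 difference -1.86 ± 0.07 (SE), edgeR adjusted p = 1.25e-12). Exo1 was 32.3 ± 0.357 CPM in CT26 against 102 ± 0.385 in MC38 and Brca2 50.9 ± 4.43 CPM in CT26 against 137 ± 7.77 in MC38. The mismatch repair gene Msh6 was expressed in both lines, at 126 ± 0.486 CPM in CT26 against 149 ± 2.21 in MC38. Mgmt, which reverses alkylation of guanine, was 0.073 ± 0.0604 CPM in CT26 against 1.07 ± 0.16 in MC38. The excision repair gene Ercc1 and the cytidine deaminase Apobec1 went the other way. Ercc1 was 159, 156 and 147 CPM in CT26 against 17.6 and 18.5 CPM in MC38 (log2 difference 3.10 ± 0.09 (SE), edgeR adjusted p = 5.45e-14). Apobec1 was 44.5, 44.7 and 49.6 CPM in CT26 against 10.8 and 9.71 CPM in MC38.

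Several receptor tyrosine kinases were expressed in 1 line and low in the other, and the feedback genes Dusp6, Spry4 and Dusp5 were higher in CT26. Of 56 tested genes of this list, 28 were higher in CT26 and 22 in MC38, 10 and 12 beyond 2-fold, median 0.17. Fgfr1, a receptor for fibroblast growth factors, was 23.8, 20.4 and 18.8 CPM in CT26 against 312 and 311 CPM in MC38 (log2 difference -3.89 ± 0.09 (SE), edgeR adjusted p = 3.89e-15). Erbb3, a partner of the ERBB receptors, was 0.676, 0.637 and 0.892 CPM in CT26 against 37.7 and 42.1 CPM in MC38 (log2 difference -5.75 ± 0.14 (SE), edgeR adjusted p = 6.12e-15). Egfr was low in CT26 (0.264 ± 0.105 CPM) and 6.87 ± 0.904 CPM in MC38, and Fgfr3 had 1 count in CT26 and 239 in MC38. Ephb2, a receptor of crypt positioning, was 34.5 ± 5.44 CPM in CT26 against 1.34 ± 0.492 in MC38. Met was 136 ± 3.5 CPM in CT26 against 71.7 ± 3.35 in MC38. The MAPK phosphatases and Sprouty proteins are induced by ERK signalling and dampen it. Dusp6 was 121, 119 and 121 CPM in CT26 against 30.3 and 30.2 CPM in MC38 (log2 difference 1.99 ± 0.08 (SE), edgeR adjusted p = 3.03e-12). Spry4 was 83.3, 77.4 and 75.5 CPM in CT26 against 5.98 and 6.33 CPM in MC38 (log2 difference 3.68 ± 0.11 (SE), edgeR adjusted p = 6.86e-14). Dusp5 was 28.1, 29.1 and 30.2 CPM in CT26 against 1.93 and 2.72 CPM in MC38 (log2 difference 3.66 ± 0.15 (SE), edgeR adjusted p = 2.34e-12). Spry2 gave no call (18.2 ± 1.66 CPM in CT26 against 16.7 ± 0.343 in MC38). ERK activity was not measured.

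The cholesterol and fatty acid pathway was one-sided. Cells sense sterols through SCAP and INSIG, which hold the SREBP factors back while sterol is plentiful. Released SREBP then drives most enzymes of the pathway. Of 38 tested genes, 2 were higher in CT26 and 34 in MC38, 2 and 19 beyond 2-fold, and the median log2 difference was -1.11. The 2 that were higher in CT26 were the sterol exporters Abca1 and Abcg1, which sterol-activated LXR receptors induce. Hmgcs1, a synthase early in the sterol pathway, is shown because its upstream window holds the sterol response element TCACNCCAC, set in capitals, at GRCm38.p6 chr13:119690101-119690350 on the plus strand (RefSeq, 250 bases ahead of the start).
Hmgcs1: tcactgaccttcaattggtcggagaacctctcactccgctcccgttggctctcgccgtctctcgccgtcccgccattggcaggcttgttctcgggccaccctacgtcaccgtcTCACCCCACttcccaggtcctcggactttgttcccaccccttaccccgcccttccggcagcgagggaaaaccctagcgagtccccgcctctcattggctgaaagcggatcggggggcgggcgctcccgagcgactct
The motif was searched on both strands. It was in 1.05% of 32851 such windows and in 2 of the 27 windows matched to this list (7.41%), those of Hmgcs1 and Acsl1. The 2 genes with it had a median log2 difference of -0.93, and the 24 tested without it -1.39, with 1 and 15 beyond 2-fold toward MC38. A match is a run of letters, and binding was not measured.

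Hmgcs1 was 123, 144 and 152 CPM in CT26 against 327 and 314 CPM in MC38 (log2 difference -1.20 ± 0.09 (SE), edgeR adjusted p = 2.82e-09). The regulator Srebf2 was 249, 224 and 207 CPM in CT26 against 634 and 643 CPM in MC38 (log2 difference -1.50 ± 0.08 (SE), edgeR adjusted p = 1.08e-10). For both genes each MC38 library was above each CT26 library, though Hmgcs1 was not called in a fit of all 14 libraries with 1 shared spread. Fatty acid synthase (Fasn) was 320, 308 and 250 CPM in CT26 against 1149 and 1220 CPM in MC38 (log2 difference -2.02 ± 0.10 (SE), edgeR adjusted p = 2.66e-11), and the desaturase Scd2 1760 ± 199 CPM in CT26 against 2457 ± 36.2 in MC38. The gap was wider for Dhcr7. This enzyme of the end of the pathway, which reduces 7-dehydrocholesterol, was 22.2, 23.6 and 22.2 CPM in CT26 against 226 and 218 CPM in MC38 (log2 difference -3.29 ± 0.08 (SE), edgeR adjusted p = 3.06e-15). Abca1 ran opposite at 90.3, 83.3 and 73.8 CPM in CT26 against 1.06 and 1.4 CPM in MC38 (log2 difference 6.08 ± 0.17 (SE), edgeR adjusted p = 2.61e-14), and Abcg1 was low throughout (0.893 ± 0.087 CPM in CT26 against 0.161 ± 0.124 in MC38). Apart from the exporters, then, CT26 transcribed the genes named here at lower levels than MC38. Summed over the 39 genes of the list, levels were 6252.4 to 6721.4 CPM in CT26, 13569.1 to 13729.6 CPM in MC38 and 6157.4 CPM in E0771. Serum in the medium supplies sterol to both lines, and the media differ, so line and medium cannot be told apart here. The part of medium was not tested.

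**Figure D4:**
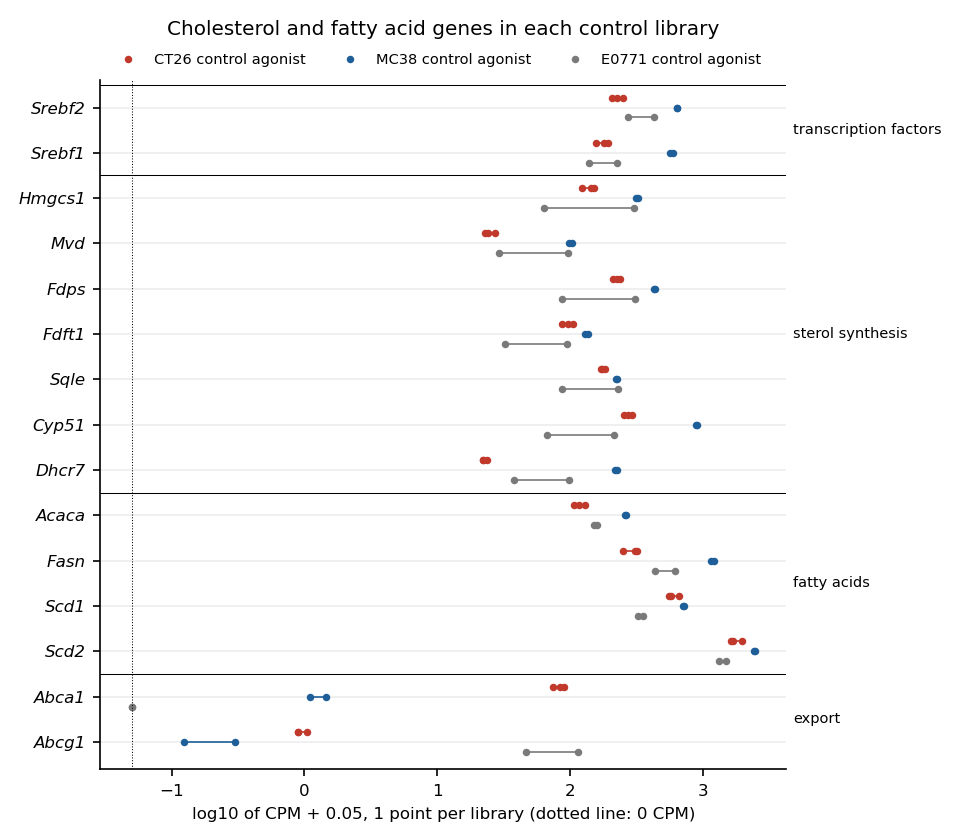
Control level of cholesterol and lipid genes in each library (CPM, log scale, 0.05 added) for CT26, MC38 and E0771. MC38 points lie above CT26 points for the pathway enzymes, most widely for Dhcr7, and below them for Abca1.

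Glycolysis and hypoxia genes were divided about evenly between the lines. Of 40 tested, 16 were higher in CT26 and 17 in MC38, with a median of -0.04. Beyond 2-fold were 8 and 9, together 42.5% of the list against 33.6% of all genes. The lactate dehydrogenase subunits showed this most clearly: Ldha was 3417, 3294 and 3560 CPM in CT26 against 1368 and 1355 CPM in MC38 (log2 difference 1.33 ± 0.08 (SE), edgeR adjusted p = 5.52e-10), while Ldhb had 2 counts in CT26 and 783 in MC38. Among the enolases, Eno3 was 175, 210 and 196 CPM in CT26 against 8.78 and 8.31 CPM in MC38 and Eno2 41.6 ± 5.37 CPM in CT26 against 4.32 ± 0.0318 in MC38. The lactate exporter Slc16a3 was 91.3, 78.8 and 81.8 CPM in CT26 against 503 and 522 CPM in MC38 (log2 difference -2.61 ± 0.08 (SE), edgeR adjusted p = 7.60e-14), and Pfkfb3, which makes the activator of phosphofructokinase, 0.574 ± 0.0764 CPM in CT26 against 34.7 ± 0.106 in MC38. Hypoxia targets split as well. Ndrg1 was 385 ± 51.6 CPM in CT26 against 75.1 ± 0.217 in MC38, Vegfa 170 ± 11.2 CPM in CT26 against 56.8 ± 1.68 in MC38 and Car12 15.7 ± 1.27 CPM in CT26 against 0.277 ± 0.128 in MC38, while Egln3, an oxygen-sensing hydroxylase, had 1 count in CT26 and 719 in MC38. Hk2 and Car9 gave no call (Hk2 82.5 ± 4.76 CPM in CT26 against 88.7 ± 2.24 in MC38, Car9 13.2 ± 5.42 CPM in CT26 against 6.55 ± 0.421 in MC38).

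Nuclear genes of oxidative phosphorylation were mostly higher in CT26, at 34 of 45 against 4 in MC38, with 12 beyond 2-fold and 0 toward MC38, and a median of 0.62. This list is short in transcript: 31 of the 45 fell in the shortest of 5 equal classes of exon length. Over the protein-coding genes tested the shortest class had a median log2 difference of 0.29 and the longest -0.23. With each gene set against the median of its length class, the list's median was 0.51. Leaving aside medians within 0.1 of 0, this step moved 6 of the other lists by more than 1.5 times: DNA repair (-0.43 to -0.24), the Wnt pathway (-0.4 to -0.17), matrix (-0.34 to -0.19), cytosolic DNA sensing (0.19 to 0.08), receptor tyrosine kinases with MAPK feedback (0.17 to 0.29) and TGF-beta with BMP signalling (0.19 to 0.38). Ndufa2, of complex I, was 125, 158 and 153 CPM in CT26 against 33.1 and 31.5 CPM in MC38 (log2 difference 2.17 ± 0.11 (SE), edgeR adjusted p = 6.34e-11). Cox6b1, of complex IV, was 246, 295 and 293 CPM in CT26 against 82.6 and 73.6 CPM in MC38 (log2 difference 1.83 ± 0.10 (SE), edgeR adjusted p = 6.79e-11). The longer Sdha gave no call (250 ± 8.33 CPM in CT26 against 276 ± 1.81 in MC38), and Uqcrc1 was 132 ± 11.1 CPM in CT26 against 188 ± 0.455 in MC38. Of the 13 mitochondrially encoded genes, 1 was higher in CT26 and 9 in MC38 (5 beyond 2-fold, median -0.59). The genome's RNAs took 2.44% to 2.88% of counts in CT26 and 4.79% to 5.0% in MC38. The complex IV gene mt-Co1 was 8759 ± 949 CPM in CT26 against 13214 ± 285 in MC38, the complex I gene mt-Nd1 2399 ± 164 CPM in CT26 against 3627 ± 135 in MC38 and mt-Cytb, of complex III, 4608 ± 462 CPM in CT26 against 2389 ± 83.5 in MC38. For mt-Atp6, mt-Co3 and mt-Nd3, levels of nuclear copies that share their sequence are given below.

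Genes of the ATF4 stress response and of serine and asparagine synthesis leaned toward CT26. Of 33 tested, 19 were higher in CT26 and 8 in MC38, 7 and 5 beyond 2-fold, with a median of 0.44. This lean was not seen with RIG-I agonist, where the median was -0.01 with 3 and 6 beyond 2-fold. The factors themselves were higher: Atf4 was 935, 974 and 949 CPM in CT26 against 346 and 346 CPM in MC38 (log2 difference 1.46 ± 0.08 (SE), edgeR adjusted p = 7.87e-11). Atf5 was 444, 414 and 349 CPM in CT26 against 32.1 and 31.7 CPM in MC38 (log2 difference 3.66 ± 0.11 (SE), edgeR adjusted p = 1.25e-13). Asns, asparagine synthetase, was 715, 789 and 840 CPM in CT26 against 272 and 266 CPM in MC38 (log2 difference 1.54 ± 0.09 (SE), edgeR adjusted p = 1.62e-10). Phgdh, the entry to serine synthesis, was 962 ± 97.9 CPM in CT26 against 565 ± 0.163 in MC38, and the mitochondrial folate enzyme Aldh1l2 314 ± 25.8 CPM in CT26 against 109 ± 4.83 in MC38. Vldlr was 265 ± 12.8 CPM in CT26 against 65.7 ± 2.69 in MC38. Arginine synthesis stood on the MC38 side, where the argininosuccinate enzymes Ass1 and Asl were 15.5 ± 2.27 CPM and 52.3 ± 0.183 CPM. In CT26 Ass1 had 1 count in 3 libraries and Asl was 19.8 ± 0.378 CPM, and E0771 had 234 CPM of Ass1.

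Amino acid transporters leaned to MC38, with 5 of 21 higher in CT26 and 14 in MC38, 5 and 6 beyond 2-fold, and a median of -0.65. The leucine carrier Slc7a5 was 414 ± 51 CPM in CT26 against 921 ± 18.3 in MC38, the taurine carrier Slc6a6 160, 154 and 136 CPM in CT26 against 761 and 782 CPM in MC38 (log2 difference -2.36 ± 0.08 (SE), edgeR adjusted p = 3.47e-13), and the glutamine carrier Slc38a1 5.86, 6.65 and 7.45 CPM in CT26 against 103 and 103 CPM in MC38 (log2 difference -3.95 ± 0.10 (SE), edgeR adjusted p = 6.69e-15). On the CT26 side the glutamine carrier Slc1a5 was 421 ± 26.9 CPM in CT26 against 150 ± 1.91 in MC38, and the glutamate carrier Slc1a2, typical of astrocytes, 65.9 ± 1.71 CPM in CT26 against 0.26 ± 0.16 in MC38. Slc7a11, the cystine importer, was 49.9 ± 1.11 CPM in CT26 against 77.1 ± 1.08 in MC38.

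NRF2 targets and glutathione genes were even in number, 20 of 49 higher in CT26 and 19 in MC38, with a median of 0.07. Beyond 2-fold were 6 and 10, together 32.7% of the list and near the 33.6% of all genes. The regulators Nfe2l2 and Keap1 differed little: Nfe2l2 was 156 ± 3.69 CPM in CT26 against 115 ± 3.52 in MC38 and Keap1 55.7 ± 3.88 CPM in CT26 against 64.2 ± 0.163 in MC38. Single detoxifying enzymes differed widely. Nqo1, a quinone reductase and standard NRF2 target, was 1.49, 1.73 and 2.49 CPM in CT26 against 96.2 and 89.5 CPM in MC38 (log2 difference -5.60 ± 0.14 (SE), edgeR adjusted p = 3.71e-14), and the microsomal transferase Mgst1 0.113, 0.0764 and 0.0787 CPM in CT26 against 49.2 and 45.8 CPM in MC38 (log2 difference -9.00 ± 0.17 (SE), edgeR adjusted p = 3.75e-16). The carbonyl reductase Cbr3 had 0 counts in CT26 and 9.92 ± 2.17 CPM in MC38. Its paralogue Cbr1 was 0.0783 ± 0.0435 CPM in CT26 against 8.72 ± 0.264 in MC38. Gstm2 and Mgst2 went the other way (Gstm2 47 ± 3.68 CPM in CT26 against 5.11 ± 0.352 in MC38, Mgst2 17.6 ± 0.156 CPM in CT26 against 0.84 ± 0.0441 in MC38), and Hmox1 gave no call (102 ± 11.9 CPM in CT26 against 114 ± 0.839 in MC38).

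Few genes for the detection of RNA differed beyond 2-fold. Of 25 tested RNA sensing genes, 10 were higher in CT26 and 10 in MC38, and the median was -0.08. Beyond 2-fold were 4 and 1, 20% of the list against 33.6% of all genes. Ddx58, which encodes RIG-I, was 144, 138 and 154 CPM in CT26 against 215 and 213 CPM in MC38 (log2 difference -0.56 ± 0.07 (SE), edgeR adjusted p = 3.95e-06). Ifih1, which encodes MDA5, was 55.8, 51.5 and 54.5 CPM in CT26 against 71.8 and 69.8 CPM in MC38 (log2 difference -0.39 ± 0.08 (SE), edgeR adjusted p = 0.000265). Their adaptor Mavs was 69.4, 71.4 and 70.9 CPM in CT26 against 62.4 and 62.7 CPM in MC38, a call that was lost under several alternatives. Irf3, the factor downstream, gave no call (36.2 ± 0.837 CPM in CT26 against 39.5 ± 1.13 in MC38, log2 difference -0.13 ± 0.08 (SE), edgeR adjusted p = 0.172). Irf7, the factor that amplifies interferon production, differed widely, at 181, 188 and 178 CPM in CT26 against 25.5 and 23.4 CPM in MC38 (log2 difference 2.90 ± 0.09 (SE), edgeR adjusted p = 7.25e-14). The kinase Ikbke was 13 ± 0.927 CPM in CT26 against 3.04 ± 0.596 in MC38, the RNA-activated kinase Eif2ak2 222 ± 15.2 CPM in CT26 against 96.5 ± 4.69 in MC38, the endosomal receptor Tlr3 31.2 ± 1.01 CPM in CT26 against 61.8 ± 0.0811 in MC38 and the MDA5 ligase Trim65, about as far apart as Irf7 in the other direction, 1.84 ± 0.121 CPM in CT26 against 13.2 ± 0.685 in MC38 (log2 difference -2.84).

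For cytosolic DNA, 9 of 19 sensing genes were higher in CT26 and 6 in MC38, median 0.19. Beyond 2-fold were 4 and 3, together 36.8% of the list and near the 33.6% of all genes. Cgas, the sensor, was 36.4, 32 and 31.8 CPM in CT26 against 47.9 and 48.2 CPM in MC38. Tmem173, which encodes its partner STING, was 29.9, 34.9 and 35.5 CPM in CT26 against 15.8 and 12.7 CPM in MC38 (log2 difference 1.23 ± 0.12 (SE), edgeR adjusted p = 1.11e-07). Both were thus expressed in each line. The family of Ifi200 genes split, Ifi203 at 113 ± 12 CPM in CT26 against 24.5 ± 0.259 in MC38 and Ifi211 at 38.5 ± 5.35 CPM in CT26 against 93.4 ± 1.15 in MC38. Ifi202b, a member that C57BL/6 mice are known to express poorly, was 161, 166 and 191 CPM in CT26 against 0 and 0.0736 CPM in MC38, with 0 counts in the C57BL/6 line E0771 too.

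Receptors and transducers of interferon were even: 10 of 26 were higher in each line, near the shares over all genes, with a median of 0.06. Beyond 2-fold were 2 each, together 15.4% of the list against 33.6% of all genes. Ifnar1 was 40.6 ± 0.311 CPM in CT26 against 35.5 ± 1.65 in MC38, again a call lost under several alternatives, and Ifnar2 25.8 ± 1.54 CPM in CT26 against 16.9 ± 0.0088 in MC38. Irf9, which carries the signal to the nucleus, gave no call (74 ± 3.09 CPM in CT26 against 72.1 ± 1.01 in MC38), and its partner Stat2 was 67 ± 8.04 CPM in CT26 against 128 ± 5.26 in MC38. Outside that core, Stat5a was 2.96, 3.87 and 3.12 CPM in CT26 against 44.1 and 40.8 CPM in MC38 (log2 difference -3.67 ± 0.12 (SE), edgeR adjusted p = 1.49e-13), the feedback inhibitor Socs2 23.1, 20.6 and 23.5 CPM in CT26 against 1.43 and 2.43 CPM in MC38 (log2 difference 3.56 ± 0.18 (SE), edgeR adjusted p = 2.80e-11) and the phosphatase Ptpn6 11.6 ± 0.128 CPM in CT26 against 0.272 ± 0.032 in MC38. Irf1 was 48 ± 2.14 CPM in CT26 against 116 ± 2 in MC38. Usp18, which blocks the receptor, was 181 ± 16.2 CPM in CT26 against 93.7 ± 4.32 in MC38.

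Interferon-stimulated genes differed from gene to gene in both directions. Of 79 tested antiviral members, 47 were higher in CT26 and 27 in MC38, 25 and 9 beyond 2-fold, with a median log2 difference of 0.58. Many of these promoters carry the interferon-stimulated response element, taken here as GAAA, any 2 bases and GAAA again and searched on both strands in the 250 bases ahead of the start. It was in 2.98% of 32851 windows and in 30 of the 63 windows matched to this list (47.6%). The window of Rsad2 is shown, where the element reads on the opposite strand, because this gene was the widest of those higher in MC38. It lies at GRCm38.p6 chr12:26456453-26456702 on the minus strand, is printed 5′ to 3′ of the gene, and has the element in capitals.
Rsad2: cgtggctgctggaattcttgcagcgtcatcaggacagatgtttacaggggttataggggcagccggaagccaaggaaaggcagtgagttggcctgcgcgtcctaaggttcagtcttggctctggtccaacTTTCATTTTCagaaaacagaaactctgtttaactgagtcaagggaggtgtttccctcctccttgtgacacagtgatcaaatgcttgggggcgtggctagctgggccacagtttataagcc
The 30 genes with the element had 20 members higher in CT26 and 7 in MC38, with a median of 0.82. Of 32 tested without it, 15 were higher in each line, with a median of -0.05. The split by motif was made after the list's values were known and is a description.

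Rsad2, the antiviral enzyme viperin, was 17.4, 15.3 and 15.6 CPM in CT26 against 426 and 420 CPM in MC38 (log2 difference -4.72 ± 0.08 (SE), edgeR adjusted p = 1.59e-16), against 17.8 CPM in E0771. Parp14 and Dtx3l, which act in ADP-ribosylation, were also higher in MC38. Parp14 was 52.7 ± 2.28 CPM in CT26 against 160 ± 4.43 in MC38, and Dtx3l 30.6 ± 3.6 CPM in CT26 against 139 ± 1.19 in MC38. On the CT26 side, Ifi27l2a was 169, 216 and 222 CPM in CT26 against 1.87 and 0.956 CPM in MC38 (log2 difference 7.13 ± 0.24 (SE), edgeR adjusted p = 4.33e-09). Plac8 was 60.9, 70.5 and 77.6 CPM in CT26 against 0.498 and 0.368 CPM in MC38 (log2 difference 7.30 ± 0.21 (SE), edgeR adjusted p = 4.01e-14). The guanylate-binding gene Gbp2b had 3866 counts in CT26 and 1 in MC38, and Ifi44l 1256 counts in CT26 and 3 in MC38. Standard members of the signature differed far less. Isg15, the ubiquitin-like modifier, was 180, 205 and 224 CPM in CT26 against 110 and 112 CPM in MC38 (log2 difference 0.87 ± 0.09 (SE), edgeR adjusted p = 2.30e-07), Ifit1 gave no call (75.3 ± 9.22 CPM in CT26 against 73.2 ± 1.48 in MC38, log2 difference 0.04 ± 0.10 (SE), edgeR adjusted p = 0.716), Oas1a was 210 ± 15.6 CPM in CT26 against 99.1 ± 1.39 in MC38 and Mx1 9.2 ± 0.878 CPM in CT26 against 13.2 ± 1.79 in MC38. Ifit3 was 43.5 ± 4.47 CPM in CT26 against 16.3 ± 2.08 in MC38. Ifit3 and Oas1a share much of their sequence with Ifit3b and Oas1g, and summed with these their log2 differences were 1.40 and 1.19.

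Genes of MHC class I and antigen processing were divided between the lines. Of 35 tested, 17 were higher in each line, 8 in CT26 and 10 in MC38 beyond 2-fold, with a median of 0.11. That median moved to -0.34 over the 33 tested members annotated as protein-coding, and over the tested members it was 0.45 with RIG-I agonist. H2-K1, a classical heavy chain, was 436, 446 and 426 CPM in CT26 against 1077 and 1033 CPM in MC38 (log2 difference -1.28 ± 0.07 (SE), edgeR adjusted p = 2.01e-10). H2-D1 was 893, 913 and 875 CPM in CT26 against 1127 and 1133 CPM in MC38, a call lost in the fit of all 14 libraries. B2m, the shared light chain, was higher in CT26 (999.7, 1074 and 1160 CPM in CT26 against 587 and 563 CPM in MC38, log2 difference 0.91 ± 0.09 (SE), edgeR adjusted p = 7.81e-08). The peptide loading genes Tap1, Tapbp and Canx were higher in MC38: Tap1, the peptide transporter, was 71.2, 66 and 60 CPM in CT26 against 278 and 281 CPM in MC38 (log2 difference -2.09 ± 0.08 (SE), edgeR adjusted p = 1.17e-12). Tapbp was 160, 154 and 138 CPM in CT26 against 824 and 832 CPM in MC38 (log2 difference -2.46 ± 0.08 (SE), edgeR adjusted p = 1.85e-13), and the chaperone Canx 394, 401 and 435 CPM in CT26 against 2346 and 2302 CPM in MC38 (log2 difference -2.50 ± 0.08 (SE), edgeR adjusted p = 1.27e-13). The regulator Nlrc5 was 21 ± 2.23 CPM in CT26 against 42 ± 2.52 in MC38, and the immunoproteasome subunits Psmb8 and Psmb9 were 40.1 ± 2 CPM in CT26 against 70.4 ± 0.0927 in MC38 and, with no call, 19.4 ± 1.93 CPM in CT26 against 18 ± 0.695 in MC38. Among non-classical chains H2-T23, which encodes Qa-1, was 29.1 ± 1.67 CPM in CT26 against 1.61 ± 0.428 in MC38, H2-Q6 68.5 ± 4.48 CPM in CT26 against 1.24 ± 0.0921 in MC38, and H2-Q2 had 0 counts in MC38 and 60.6 ± 3.77 CPM in CT26. Cd1d1, which presents lipids, had 0 counts in CT26 and 8.44 ± 0.913 CPM in MC38. CT26 carries BALB/c H2 alleles and MC38 those of C57BL6, the strain of the reference, so the counting of H2 genes and their expression cannot be told apart.

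The ligands of natural killer cell receptors had few members and wide gaps: of 8 tested, 5 were higher in CT26 and 3 in MC38, 4 and 3 beyond 2-fold. The median of 2.58 rests on few genes. The NKG2D ligand Ulbp1 was 112, 115 and 122 CPM in CT26 against 14.6 and 10.9 CPM in MC38 (log2 difference 3.19 ± 0.11 (SE), edgeR adjusted p = 6.25e-13). Raet1d and Raet1e, also NKG2D ligands, had 0 counts in CT26 and 10.9 ± 0.0475 CPM and 10.8 ± 1.13 CPM in MC38. They share 67.1% of the words of Raet1d, so reads could be divided between them. The strains are known to carry different Raet1 and H60 genes. H60b was 2, 2.7 and 3.57 CPM in CT26 against 0 CPM in both libraries of MC38. Clec2d, a ligand of the inhibitory NKR-P1 receptors, was 11.7 ± 1.14 CPM in CT26 against 0.925 ± 0.252 in MC38. Cadm1 was 254, 241 and 247 CPM in CT26 against 3.92 and 4.78 CPM in MC38 (log2 difference 5.84 ± 0.11 (SE), edgeR adjusted p = 5.46e-16).

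Checkpoint ligands were split, 11 of 23 tested higher in CT26 and 10 in MC38, median 0.1. Beyond 2-fold were 6 and 7, together 56.5% of the list against 33.6% of all genes. Cd274, which encodes PD-L1, was 5.86, 5.78 and 6.11 CPM in CT26 against 22.3 and 21.6 CPM in MC38 (log2 difference -1.89 ± 0.11 (SE), edgeR adjusted p = 1.77e-10). Cd80, a ligand of CD28 and CTLA-4, had 1357 counts in CT26 and 1 in MC38 (12 ± 1.1 CPM in CT26), a ratio of 357-fold by counts (exact 95% interval 63.9 to 14095). Cd47, the signal against phagocytosis, was 108 ± 9.04 CPM in CT26 against 82.7 ± 1.08 in MC38. Pvr was 93.9 ± 4.24 CPM in CT26 against 74.8 ± 0.436 in MC38. The galectin genes Lgals1 and Lgals3, whose proteins bind T-cell glycans, were higher in CT26: Lgals1 was 4221, 5256 and 5120 CPM in CT26 against 630 and 623 CPM in MC38 (log2 difference 2.96 ± 0.11 (SE), edgeR adjusted p = 8.81e-13), and Lgals3 656 ± 25.1 CPM in CT26 against 147 ± 2.72 in MC38. Vcam1, an adhesion ligand, was 146 ± 8.81 CPM in CT26 against 45.2 ± 4.9 in MC38. Tnfsf9, the ligand of 4-1BB, was 7.65 ± 0.158 CPM in CT26 against 18.1 ± 0.127 in MC38, and Nectin3 had 1 count in CT26 and 1197 in MC38.

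More chemokine genes were higher in MC38 than in CT26. Of 20 tested ligands and receptors, 4 were higher in CT26 and 12 in MC38, 4 and 11 beyond 2-fold. The median log2 difference was -2.97. The 35 genes of the list summed to 48.4 to 53.3 CPM over the CT26 libraries and 585.8 to 607.5 CPM in MC38, where Cxcl10 and Ccl2 made up most of it. Cxcl10 is induced by interferon and recruits CXCR3-bearing T cells. Its upstream window is shown because it and the window of Cxcl14 were the 2 of 26 on the list (7.69%) with the interferon-stimulated response element, in capitals, at GRCm38.p6 chr5:92348890-92349139 on the minus strand.
Cxcl10: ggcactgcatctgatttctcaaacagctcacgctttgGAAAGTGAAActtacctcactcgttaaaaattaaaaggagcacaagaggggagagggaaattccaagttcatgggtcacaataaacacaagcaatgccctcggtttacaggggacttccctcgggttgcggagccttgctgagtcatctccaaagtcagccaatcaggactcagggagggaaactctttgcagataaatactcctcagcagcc
Cxcl14 had 0 counts in both lines. Cxcl10 was 11.2, 11.4 and 11.3 CPM in CT26 against 254 and 251 CPM in MC38 (log2 difference -4.48 ± 0.08 (SE), edgeR adjusted p = 1.59e-16). Ccl2, which draws monocytes, was 0.338, 0.688 and 0.472 CPM in CT26 against 257 and 247 CPM in MC38 (log2 difference -8.95 ± 0.13 (SE), edgeR adjusted p = 5.71e-17). Ccl5, a T-cell attractant, was 2.14, 1.76 and 1.44 CPM in CT26 against 20.7 and 17.6 CPM in MC38 (log2 difference -3.43 ± 0.16 (SE), edgeR adjusted p = 2.06e-11). Cxcl1, a neutrophil attractant, was 1.94, 2.47 and 1.94 CPM in CT26 against 26.3 and 23 CPM in MC38 (log2 difference -3.54 ± 0.14 (SE), edgeR adjusted p = 1.78e-12). Both MC38 libraries stood above all CT26 libraries for each of these 4. Cx3cl1, the membrane-bound fractalkine, was 0.1 ± 0.084 CPM in CT26 against 23.3 ± 0.0269 in MC38. The neighbours of Ccl2 on chromosome 11, Ccl7, Ccl8 and Ccl1, formed a run with it and with Myo1d between 80482126 and 82305690, all at least 8-fold higher in MC38. On the CT26 side stood Ackr3, a scavenging receptor of CXCL12, with 15.3 ± 1.53 CPM against 0 counts in MC38.

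With RIG-I agonist the order of 2 chemokines was opposite: Ccl5 was 152, 150 and 159 CPM in CT26 against 59.9 and 51.4 CPM in MC38 (log2 difference 1.47), and Cxcl1 119, 131 and 126 CPM in CT26 against 46.4 and 42.8 CPM in MC38 (log2 difference 1.50). The line difference changed between the agonists by -4.88 and -5.00 in log2 for these genes (edgeR interaction test, adjusted p = 6.66e-12 and 5.77e-13). Cxcl10 and Ccl2 kept the higher level in MC38 with that agonist, at log2 differences of -1.25 and -5.26, and the list's median there was 0.08.

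Of 46 tested cytokines and growth factors, 23 were higher in CT26 and 15 in MC38, 16 and 9 beyond 2-fold, median 0.38. Csf1, the macrophage growth factor, was 484, 442 and 394 CPM in CT26 against 116 and 124 CPM in MC38 (log2 difference 1.88 ± 0.09 (SE), edgeR adjusted p = 3.64e-11). Vegfa, an angiogenic factor, was 183, 167 and 161 CPM in CT26 against 55.6 and 58 CPM in MC38 (log2 difference 1.58 ± 0.08 (SE), edgeR adjusted p = 6.85e-11). Inhba, the activin A subunit, was 44.2 ± 2.37 CPM in CT26 against 2.5 ± 0.516 in MC38, the EGFR ligand Tgfa 6.53 ± 1.29 CPM in CT26 against 0.209 ± 0.12 in MC38. Ptgs1, a cyclooxygenase, was 171 ± 2.23 CPM in CT26 against 10.6 ± 0.532 in MC38. Higher in MC38 were Tgfb1 at 18.5, 16.4 and 15.5 CPM in CT26 against 71.4 and 74.2 CPM in MC38 (log2 difference -2.12 ± 0.09 (SE), edgeR adjusted p = 5.72e-12), Gdf15 at 0.0524 ± 0.0241 CPM in CT26 against 17.4 ± 0.713 in MC38, Hgf at 0.0885 ± 0.0792 CPM in CT26 against 8.57 ± 1.61 in MC38 and the lymphangiogenic Vegfc, with 1 count in CT26 and 481 in MC38. The death ligand Tnfsf10, or TRAIL, was 0.602 ± 0.0239 CPM in CT26 against 6.91 ± 0.0924 in MC38. Il6 gave no call and was low (0.223 ± 0.0518 CPM in CT26 against 0.34 ± 0.04 in MC38), and Csf2 was near 0 (12 counts in CT26 and 0 in MC38).

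In the cell death list 24 of 44 were higher in CT26 and 14 in MC38, 11 and 4 beyond 2-fold, with a median of 0.42. Ripk3 was near 0 in CT26 and Gsdmd in MC38. Ripk3, the kinase of necroptosis, had 2 counts in CT26 and 563 in MC38 (19.1 ± 1.44 CPM there), while its substrate Mlkl was expressed in both (107 ± 1.91 CPM in CT26 against 140 ± 0.747 in MC38). Gsdmd, the pore former of pyroptosis, was 50.3, 54.7 and 51.5 CPM in CT26 against 0.249 and 0.294 CPM in MC38 (log2 difference 7.57 ± 0.19 (SE), edgeR adjusted p = 8.89e-15), and its relative Gsdme 45.3 ± 3.93 CPM in CT26 against 26.2 ± 0.651 in MC38. Casp8 was 36.8 ± 1.3 CPM in CT26 against 43 ± 0.058 in MC38. The survival genes Bcl2 and Bcl2l1 were higher in CT26 (Bcl2 25 ± 3.92 CPM in CT26 against 9.7 ± 0.717 in MC38, Bcl2l1 134 ± 4.13 CPM in CT26 against 47 ± 0.0903 in MC38). Apaf1, of the apoptosome, was 24.8 ± 2.02 CPM in CT26 against 62.6 ± 1.17 in MC38, the TRAIL receptor Tnfrsf10b 29.7 ± 1.45 CPM in CT26 against 87.1 ± 0.104 in MC38 and the ferroptosis lipid enzyme Acsl4 82.5 ± 6.22 CPM in CT26 against 267 ± 2.61 in MC38.

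The Wnt pathway, mutated in most human colon cancers, had 9 of 32 tested genes higher in CT26 and 16 in MC38, 5 and 9 beyond 2-fold, median -0.4. Core members were expressed in both lines. Apc gave no call (81.6 ± 2.35 CPM in CT26 against 73.1 ± 2.79 in MC38, log2 difference 0.16 ± 0.08 (SE), edgeR adjusted p = 0.0689), and Ctnnb1, the beta-catenin gene, was 475 ± 32.5 CPM in CT26 against 412 ± 1.28 in MC38, a call lost under several alternatives. The standard targets were low in both: Axin2 was 0.648, 0.866 and 0.813 CPM in CT26 against 0.311 and 0.441 CPM in MC38. Lgr5, the stem cell marker, was 0.197, 0.0509 and 0.0525 CPM in CT26 against 0.187 and 0 CPM in MC38. Receptors and nuclear factors differed by line. Fzd6 had 4902 counts in CT26 and 3 in MC38, Fzd3 1330 counts in CT26 and 1 in MC38, and Fzd1 0 counts in CT26 and 182 in MC38. The co-receptor Lrp5 was 12.6 ± 0.823 CPM in CT26 against 94.2 ± 8.14 in MC38, and the TCF factors Tcf7 and Tcf7l1 were near 0 in CT26 and 9.14 ± 0.0756 CPM and 18.5 ± 0.585 CPM in MC38.

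For TGF-beta and BMP signalling 16 of 31 were higher in CT26 and 9 in MC38, 10 and 4 beyond 2-fold, median 0.19. The receptor Tgfbr2 gave no call (49.1 ± 4.29 CPM in CT26 against 54.1 ± 1.08 in MC38), and Smad4 was 53.8 ± 2.47 CPM in CT26 against 72.9 ± 0.328 in MC38. The BMP-responsive Id1 and Id2 were higher in CT26, Id1 at 113, 137 and 124 CPM in CT26 against 43.1 and 44.8 CPM in MC38 (log2 difference 1.50 ± 0.09 (SE), edgeR adjusted p = 5.72e-10) and Id2 at 119, 133 and 129 CPM in CT26 against 21.4 and 22 CPM in MC38 (log2 difference 2.55 ± 0.09 (SE), edgeR adjusted p = 6.41e-13). So were the secreted antagonists Grem1, at 284 ± 14.8 CPM in CT26 against 33 ± 0.122 in MC38, and Fst, at 13 ± 1.3 CPM in CT26 against 0.192 ± 0.168 in MC38. Bmpr2 and Smad9 were higher in MC38 (Bmpr2 50.2 ± 5.92 CPM in CT26 against 117 ± 1.54 in MC38, Smad9 0.0376 ± 0.0651 CPM in CT26 against 9.68 ± 1.2 in MC38).

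Among YAP and TEAD targets and regulators 15 of 25 were higher in CT26 and 8 in MC38, 8 and 1 beyond 2-fold, median 0.35. Ccn2, the standard target also called CTGF, was 106, 98.2 and 89.3 CPM in CT26 against 0 CPM in both libraries of MC38, at least 964-fold higher in CT26 by the limit of 3 counts over the MC38 libraries, and 7.84 CPM in E0771. Amotl2 was 117 ± 13.9 CPM in CT26 against 20.9 ± 0.017 in MC38, Lats2 65.4 ± 11.8 CPM in CT26 against 17.3 ± 0.179 in MC38 and Tead3 38.7 ± 4.57 CPM in CT26 against 4.56 ± 0.728 in MC38. The cofactors themselves differed little: Yap1 was 79.4 ± 6.18 CPM in CT26 against 105 ± 0.633 in MC38. Wwtr1 was 122 ± 3.23 CPM in CT26 against 95.3 ± 0.12 in MC38.

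Genes at 5 CPM or more in every library of 1 line and at 3 counts or fewer over the libraries of the other were counted as restricted, without a test. There were 138 restricted to CT26, 88 of them protein-coding and 49 pseudogenes, and 187 to MC38, of which 185 were protein-coding. The limit of 3 counts is a lower CPM in the deeper CT26 libraries, so these counts cannot be set against each other as they stand. Of the protein-coding genes, 39 of the CT26 set and 95 of the MC38 set had 0 counts in the other line. In E0771, 25 of the CT26 set and 69 of the MC38 set reached 1 CPM. With RIG-I agonist all 88 and all 185 stayed under 1 CPM in the line where they were missing, and 83 and 176 were again at 5 CPM or more throughout the other. With the CT26 counts thinned to the depth of MC38 the sets held 136 and 271 genes.

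Among protein-coding genes above 50 CPM, the largest differences toward CT26 included Esm1, an endothelial proteoglycan, at 195, 170 and 206 CPM in CT26 against 0 CPM in both libraries of MC38, Clca3a1 at 173, 174 and 182 CPM in CT26 against 0 CPM in both libraries of MC38, the guidance ligand Slit3 at 111 ± 14.8 CPM and Amigo2 at 80.2 ± 1.08 CPM, the latter 2 with 0 counts in MC38. Rpl39l, a ribosomal protein variant, was 224 ± 17 CPM in CT26 and at 0 counts in MC38, and Sdr39u1 52 ± 1.71 CPM and at 0 counts, with 44.5 CPM in E0771. Toward MC38 they included Shisal2b, at 0 in every library of CT26 and 161 and 152 CPM in MC38, the phospholipase Plcg2, at 0 in every library of CT26 and 98.6 and 98.2 CPM in MC38, the X-linked kinase Rps6ka6, at 0 in every library of CT26 and 92.6 and 95.6 CPM in MC38, the neurite protein Nrn1 at 93.6 ± 0.864 CPM and the growth arrest gene Gas1 at 93.4 ± 4.59 CPM. Nrn1, Gas1, Adgrl2 and Fndc3c1 had 0 counts in CT26, and their MC38 levels were 82.9 ± 2.59 CPM for Adgrl2 and 73 ± 0.869 CPM for Fndc3c1. The lipase Lipg was 70.6 ± 0.836 CPM in MC38 and at 0 counts in CT26. For these genes a difference of fitted logs depends on the prior count, so only bounds are given: the MC38 level was at least 5907-fold higher for Shisal2b and at least 3701-fold higher for Plcg2, and the CT26 level at least 1878-fold higher for Esm1 and at least 1743-fold higher for Clca3a1.

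Some differences came in neighbouring genes. There were 43 runs of at least 3 adjacent tested protein-coding genes. Their members were all restricted to 1 line or all at least 8-fold apart in 1 direction by the fitted difference. Fitted differences and the medians of these runs depend on the prior count wherever a member has 3 counts or fewer in a line, so levels are given. The number of runs depends on it too. By the limit of 3 counts some members are not shown to reach 8-fold. Serpinb1b, Serpinb9d and Serpinb9f in the run below were at least 4.03-fold, 3.07-fold and 5.61-fold higher in CT26. On chromosome 13 the granzyme-inhibitor relatives Serpinb9b, Serpinb1b, Serpinb9c, Serpinb9d, Serpinb9e and Serpinb9f ran from 33027416 to 33335370, all higher in CT26. Serpinb9b was 17.6, 18.9 and 19.8 CPM in CT26 against 0.249 and 0.294 CPM in MC38, and the others were at 2.19 CPM or less in every CT26 library. On chromosome 8 the carboxylesterases Ces1a, Ces1d, Ces1f, Ces1g and Ces5a (93020214 to 93535830) were higher in CT26, Ces1g at 27.7, 29.4 and 30.8 CPM in CT26 against 0 and 0.0736 CPM in MC38. On chromosome 15 the surface proteins Ly6a, Ly6c1 and Ly6c2 (74994877 to 75111970) were higher in CT26 as well, Ly6a at 19.2 ± 1.92 CPM in CT26 against 1.15 ± 0.04 in MC38, and on chromosome 14 the interferon-inducible Phf11a, Phf11b and Phf11d with Gm6904, Phf11d at 109 ± 11.3 CPM in CT26 against 13 ± 0.244 in MC38. The prolactin-family genes Prl2c3, Prl2c2 and Prl2c5 on chromosome 13 (12790816 to 13191923) were higher in MC38, where Prl2c3 was 91.5 ± 5.86 CPM and CT26 had 0 counts. Also higher in MC38 were the imprinted neighbours Snrpn, Snurf, Mkrn3 and Peg12 on chromosome 7 and the X-linked Rtl8a, Rtl8b and Rtl8c. The cytokine receptors Osmr and Lifr with Gdnf, a neurotrophic factor, had a median of -4.57 on chromosome 15, Osmr at 0.742 ± 0.335 CPM in CT26 against 17.8 ± 0.289 in MC38 and Lifr at 0.109 ± 0.0944 CPM in CT26 against 11.1 ± 2.51 in MC38. Many of these runs are families of similar sequence, and their counts can be exchanged between members.

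Pseudogenes leaned toward CT26. Of 1367 tested, 538 exceeded 2-fold toward CT26 and 126 toward MC38, and their median log2 difference was 1.49, against -0.05 for 13322 protein-coding genes (1947 and 2321). Estimated counts divide reads between near-identical sequences, and the reference is of the strain of MC38, so shared sequence was measured as the share of 31-base words of a gene's transcripts that another gene also holds. The pairs below were picked after their values were seen. Gm10184 shared 95.8% of its words with Kpna2, a nuclear import receptor. Gm10184 was 384 CPM in CT26 and at 0 in MC38, while Kpna2 was 46.6 and 497 CPM, and their sum was 431 ± 26.9 CPM in CT26 and 497 ± 8.5 CPM in MC38, a log2 ratio of -0.21. Gm10260 shared 68.7% with Rps18, a ribosomal protein gene, and the sum gave 0.85 in place of opposite differences. Rplp0, often used as a reference gene, was 1303, 1491 and 1561 CPM in CT26 against 3293 and 3210 CPM in MC38 (log2 difference -1.16 ± 0.09 (SE), edgeR adjusted p = 5.35e-09). It shared 35.0% of its words with the pseudogene Gm8730, which was 1493 CPM in CT26 and 0.198 CPM in MC38, and the log2 ratio of the sums was -0.14. The mitochondrial genes were treated in the same way. Gm10925, the partner of mt-Atp6, was 1353 CPM in CT26 and 9.53 CPM in MC38, and the log2 value went from -2.59 to -1.36 in the sum. Gm28437, the partner of mt-Co3, was 665 CPM in CT26 and at 0 in MC38, and the sum gave -1.53. Gm28438, the partner of mt-Nd3, was about equal in the lines at 168 CPM in CT26 and 165 CPM in MC38, so the sum changed the log2 value from -2.11 to -0.94 and left the gap in CPM much as it was. Of the 538 pseudogenes beyond 2-fold toward CT26, 325 shared at least 50% of their words with a protein-coding gene. The 233 such genes tested had a median log2 difference of 0.46, or 0.82 with their pseudogenes added.

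Genes often used for scaling were not constant. Of 14 reference genes tested, 5 were higher in CT26 and 5 in MC38, 0 and 4 beyond 2-fold, median -0.04. Tbp gave no call at 44.1 ± 3.87 CPM in CT26 against 41.6 ± 2.52 in MC38 (log2 difference 0.09 ± 0.09 (SE), edgeR adjusted p = 0.412), Actb was 2329 ± 114 CPM in CT26 against 2780 ± 5.38 in MC38 and Hprt 144 ± 8.96 CPM in CT26 against 117 ± 5.33 in MC38. Polr2a was 121, 115 and 92.7 CPM in CT26 against 433 and 439 CPM in MC38 (log2 difference -1.99 ± 0.10 (SE), edgeR adjusted p = 1.23e-10). Gusb was 35.6 ± 1.19 CPM in CT26 against 136 ± 3.76 in MC38. Scaling on total counts, with upper quartile factors or with RLE factors shifted the median of all genes by less than 0.1 in log2.

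The balance between the lines also varied by chromosome. The median log2 difference was highest on chromosome 15 (0.52, 520 genes), followed by chromosome 18 (0.26, 342 genes) and 7 (0.17, 1054 genes). It was lowest on chromosome 11 (-0.52, 1064 genes), followed by X (-0.33, 436 genes) and 8 (-0.28, 718 genes). Subtracting the median of each gene's length class left 0.57 on chromosome 15 and -0.51 on 11. With RIG-I agonist the 2 extremes were 0.42 and -0.51. Copy number was not measured, and the part of strain in these values was not tested.

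**Figure D5:**
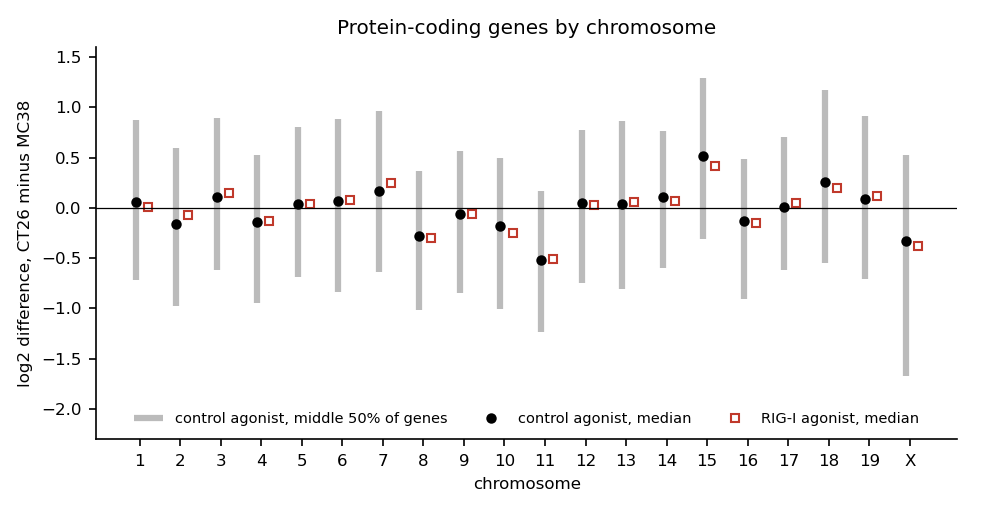
Median log2 difference, CT26 minus MC38, of tested protein-coding genes on each chromosome for the control agonist (filled points, with grey bars over the middle 50% of genes) and the RIG-I agonist libraries (open squares). Chromosome 15 lies highest at 0.52 and chromosome 11 lowest at -0.52 with control agonist, and the RIG-I agonist libraries give 0.42 and -0.51.

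The RIG-I agonist libraries of the same lines share no library with this comparison and give the line difference again in treated cells. There, 14875 genes were tested and 81.8% were called, 33.2% beyond 2-fold. Of the 2500 genes beyond 2-fold toward CT26 with control agonist, 2436 were tested, 2000 (82.1%) were beyond 2-fold in the same direction and 0 were called the other way. Of the 2458 toward MC38, 2345 were tested, 1973 (84.1%) were beyond 2-fold in the same direction and 20 were called the other way, 9 of these beyond 2-fold. The difference between the 2 line contrasts was itself called for 2536 of 15642 genes in 1 fit of the 10 libraries. The list medians described above had the opposite sign with RIG-I agonist for chemokines (-2.97 and 0.08), ATF4 and serine genes (0.44 and -0.01), NRF2 targets (0.07 and -0.3), RNA sensing (-0.08 and 0.04), fibroblast markers (-0.02 and 0.83) and the 3 Y-linked genes (-0.96 and 0.46).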

How the data were processed

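The authors deposited estimated counts for 34866 Ensembl identifiers, 1 table per line. Salmon, DESeq2 and GRCm38 appear in the submitters' processing notes without versions or roles, and the annotation and trimming are not given in the sources used here. Identifiers were matched to GENCODE M21 of GRCm38: 32644 exactly, 34652 without version, 214 not at all. They comprise 21850 protein-coding genes and 12300 pseudogenes, and 30 symbols stood for more than 1 identifier. Estimated counts were rounded. Groups and replicate numbers came from the titles.

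CT26 and MC38 control libraries were compared with edgeR 4.0.16 (R 4.3.3): TMM, filterByExpr at a minimum count of 10, robust quasi-likelihood F test, Benjamini-Hochberg over all genes tested, adjusted p under 0.05. The prior count was 0.125. glmTreat tested differences above 2-fold. DESeq2 1.42.0, other scalings, filters, thinning, a fit of all 14 libraries, a replicate block and leaving out each library were alternatives. The line by agonist interaction and the summed sequence-sharing pairs were added after seeing the data. Intervals are exact at 95%. Intervals and the limit of 3 counts cover counting error only. On simulated counts for 14430 genes, the test recovered 94% of 2-fold and 100% of 4-fold changes, and 6.28% of its calls were false. The simulation changed 100 genes 2-fold and 100 genes 4-fold, all at 1 CPM or more, and left the rest equal. It gave all genes and both lines 1 common spread. In the data 78.1% of genes were called, so these rates need not hold for this comparison.

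Members and gene lists were chosen with earlier results of these data known. Named in each list are preset core genes and up to 4 called genes a direction with the largest difference among those whose higher line averaged 5 CPM; over all genes, the 10 protein-coding genes a direction with the largest difference at 50 CPM or more; the 8 most abundant restricted genes a line; and runs of at least 3 neighbours. Abcg1, Hmgcs1, Kpna2, Cxcl14, Cd14, Mtap and the sequence-sharing partners were named after their values were seen. Promoter windows are RefSeq (GRCm38.p6). Some genes of these lists are not reported here singly.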

Additional observations from a re-analysis of the deposited data

Results flagged for a closer look

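In 10 of the genes described above the lines stood in opposite order with the other agonist, with every CT26 library on 1 side of both MC38 libraries in each case. Ccl5 and Cxcl1 are described with the chemokines, at log2 differences of 1.47 and 1.50 with RIG-I agonist. The antiviral gene Mx1 was higher in MC38 with control agonist and in CT26 with RIG-I agonist (log2 difference 2.42, edgeR interaction adjusted p = 1.44e-10). The RNA sensor Ifih1 (0.75, adjusted p = 1.08e-07) and the transducer Stat2 (0.12, adjusted p = 9.47e-06) changed order in the same direction. So did mt-Co1 (0.31, adjusted p = 0.000114) and mt-Nd1 (0.44, adjusted p = 1.1e-06), whose level differed between libraries along with the mitochondrial share of counts. Cd47 (-0.14, adjusted p = 0.000517), Mavs (-0.21, adjusted p = 0.00317) and Ifnar1 (-0.12, adjusted p = 0.0256) went from higher in CT26 to higher in MC38, by steps under 1 in log2. These p-values come from the edgeR interaction test of the 10 libraries over 15642 genes, chosen after seeing the data.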

How the results depend on the processing

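With control agonist the counts higher in CT26 and in MC38 stayed within 1.5 times of 5863 and 5661 under all alternatives except the 2-fold rule, which gave 2500 and 2458, and 2599 and 2334 with RIG-I agonist. DESeq2 gave 5461 and 5398, total counts without TMM 5398 and 6076, and CT26 thinned to the depth of MC38 5271 and 5417. Leaving out 1 library gave 5317 to 5863 and 4844 to 5657, and with RIG-I agonist 5880 to 6176 and 5424 to 5794. Where that left 1 MC38 library, its spread was taken to be that of CT26. Genes restricted to CT26 numbered 316 at 1 CPM, 54 at 20 CPM, 75 with 0 counts in place of 3 and 88 with protein-coding genes only, and those restricted to MC38 333, 70 and 97 under the first 3 of these. Without 1 library the sets held 139 to 203 and 192 to 223 genes. The replicate block gave 5829 and 5585 calls. Whether the replicate numbers pair libraries across the lines is not stated in the titles. Deviations of same-numbered libraries correlated at -0.051 and 0.06. With 2 MC38 libraries, deviations from their mean are mirror images, so these values cannot decide on pairing. Of 322 described genes with a test, none changed direction with a call in any setting. Outside the 2-fold rule, calls were lost in at least 1 setting for Mavs, Ifnar1, Ctnnb1, Axin2, Keap1, Actb, Casp8, Itga1, Msh6, Ptprc, Hprt, Mx1, Abcg1, H2-D1, Hmgcs1, Pvr, mt-Cytb and mt-Nd1. The cause was not tested.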
